A study of Neogale vison with 6 samples.

Results

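Collagens, laminins and integrins were followed by gene in Mv1Lu cells, an established line from mink lung, upon cholesterol depletion (CD). The members were the rows of the deposited count table whose gene symbol names a collagen chain, a laminin chain or an integrin subunit. The pattern matched 80 rows, of which 4 were left out because they name no subunit (ITGB1BP1, ITGB1BP2, ITGB3BP and ITGBL1). This left 76 members of 24526 genes, namely 40 collagens, 12 laminins and 24 integrins. RNA of 3 samples of untreated cells (control) and 3 of CD cells was sequenced. CD lasted 16 h and combined 50 μM of the HMG-CoA reductase inhibitor lovastatin with 50 μM mevalonate. The medium held 10% LPDS, which is fetal calf serum freed of lipoproteins. Statin, mevalonate and serum changed together and cannot be told apart. No label says whether the replicates were separate cultures, so the p-values measure the spread between these samples, which may be technical.

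Collagens are trimers of chains wound around each other in a triple helix, and they form fibrils, networks or anchoring structures around cells. Laminins are cross-shaped trimers of an alpha, a beta and a gamma chain that, with type IV collagen, build the basement membrane under epithelia. Integrins are heterodimers of an alpha and a beta subunit in the plasma membrane that bind these proteins on the outside and the cytoskeleton on the inside.

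The reads counted on genes numbered from 13473820 to 18633764 per library. Levels are given as CPM, the counts divided by the TMM-scaled library size, and 3 values in a row stand for replicates 1, 2 and 3. A gene was called higher or lower at a false discovery rate (FDR, Benjamini-Hochberg over all tested genes) under 0.05 by edgeR (quasi-likelihood test), and SE stands for the standard error of the log2 value. The CD libraries were spread along the second principal component, which held 12.3% of the variance. They lay at -30.8, -7.58 and 37.2, with CD replicates 1 and 3 at the ends. The spread between libraries (common biological coefficient of variation in edgeR) was 0.214 in CD and 0.0849 in control, and a shared fit served both groups. The tested members of CD replicate 3 lay a median of 0.44 below the mean of the other CD libraries on the log2(CPM + 0.5) scale (34 of 38 lower), whereas the median of all tested genes differed by -0.0016. On the same scale the tested members of control replicate 3 lay a median of 0.24 above the mean of the other control libraries, against 0.022 over all tested genes. Results that rest on CD replicate 3 are therefore also given without it.

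The identity of the cells was checked with lists of marker genes. Of the epithelial markers, 8 of 10 were found by symbol. EPCAM and CDH1 were close to absent, with 7 and 8 counts in all control and 2 and 18 counts in all CD libraries. The keratin KRT7 averaged 7126 ± 265 CPM without treatment and 1256 ± 156 CPM following CD (SD, n = 3 each), and the summed level of the epithelial list was between 7925 and 8574 CPM in control and between 1677 and 2076 CPM in CD libraries, most of it KRT7. Of the 5 epithelial markers tested, KRT7 and KRT19 were lower, the claudin CLDN4 was higher (27 and 326 counts) and 2 were not called (edgeR). All 10 mesenchymal markers were found, with sums of 4069 to 4303 CPM (control) and 3928 to 4986 CPM (CD), nearly all of it the filament gene VIM, while THY1 and TCF21 had no counts. The pan-leukocyte gene PTPRC and the endothelial gene CDH5 each had 0 counts in control and 1 count in CD cells. The endothelial list (6 of 6 found) summed to 206 to 221 CPM (control) and 75.9 to 124 CPM (CD), mostly the receptor TEK. The leukocyte list (5 of 6 found) summed to 0.506 to 1.27 CPM and 3.89 to 4.92 CPM. Of 8 alveolar type II markers 7 were found, SFTPB and SFTPC had no counts, and the list summed to 63.7 to 82.4 CPM and 88.7 to 134 CPM. Whether the lower keratin level has a part in the results below was not tested.

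Of the 76 members, 2 (COL8A2 and COL9A2) had no counts in any library, 36 had too few counts to be tested, and 38 were tested. Upon CD, 9 of the 38 were higher and 11 lower, and 18 were not called (edgeR). Over all 12148 genes tested, 24.8% were higher, 22.9% lower and 47.7% called in either direction, so the share of called members, 52.6%, was near the background. For 12 members (31.6%) the called change reached 2-fold, as it did for 20.2% of all tested genes. The CD libraries did not overlap the control libraries for 22 members, and for 58% of all genes tested. In such RNA of a whole culture, fewer cells of a kind and less RNA per cell cannot be told apart.

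The classes differed in their counts. Of 18 tested collagens, 2 were higher and 6 lower, and their log2 fold changes had a median of -0.31. Of 7 tested laminins, none was higher and 2 were lower, with a median of -0.29. Of 13 tested integrins, 7 were higher and 3 lower, with a median of 0.74, and the median over all tested genes was 0.06. The difference between the classes was not tested. With CD replicate 3 left out, those of the 38 members that were called numbered 6 higher and 6 lower for the collagens, 2 and 2 for the laminins and 9 and 3 for the integrins, when 29.3% of all genes were higher and 29.2% lower. Of the 38, the 8 called in addition, all higher, were COL4A2, COL4A5, COL4A6, COL15A1, LAMA3, LAMC1, ITGA5 and ITGAV. Since 34 of the 38 lay lower in CD replicate 3, leaving it out moves most values up. These calls and their direction are therefore no separate support. COL2A1, which passed the filter on low counts in that setting through its control libraries, was called lower (log2 fold change -1.15, FDR 0.0291, edgeR).

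**Figure D1:**
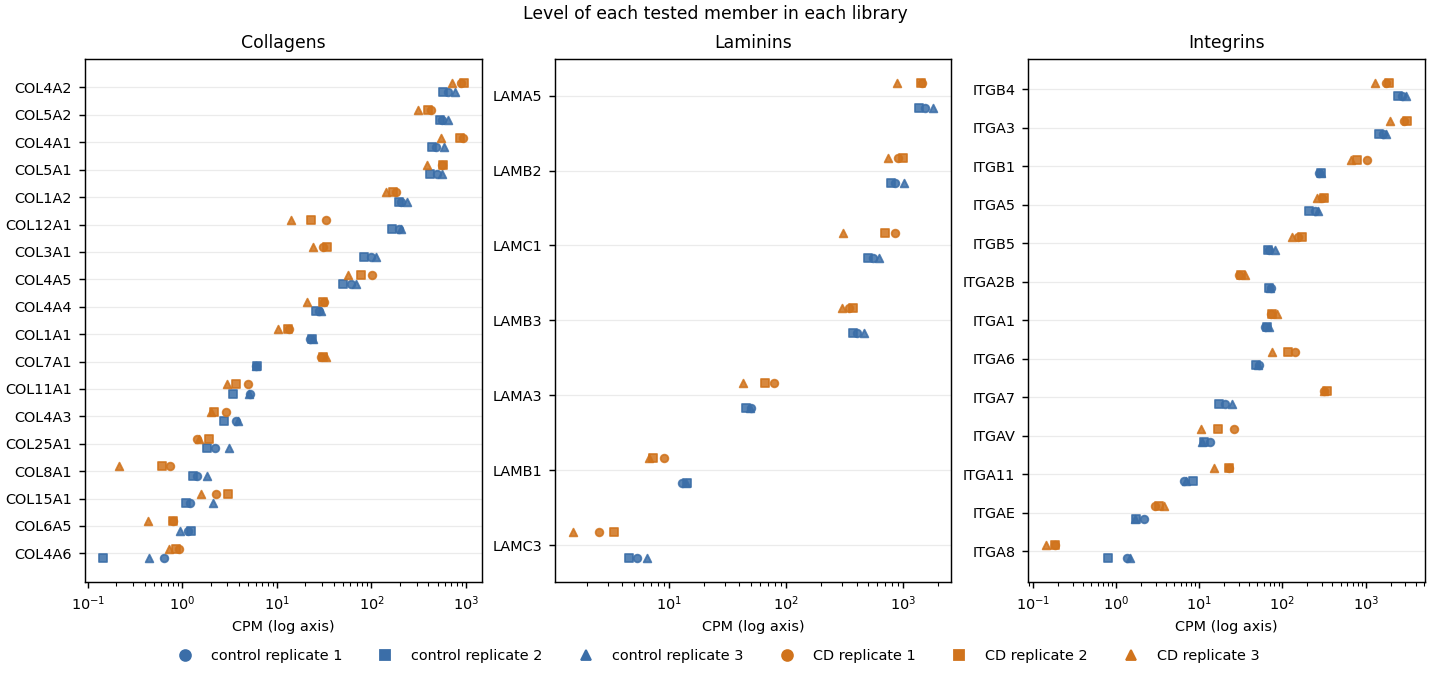
CPM on a log axis of the 38 tested members in each of the 6 libraries, with control in blue, CD in orange and a symbol for each replicate. The largest gaps between the groups are those of ITGA7, COL7A1, COL12A1 and ITGA8, and CD replicate 3 (orange triangle) is the lowest CD library for most members.

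The integrins are given by the ligands they bind, beginning with laminin. ITGA7, ITGA3 and ITGA6, the alpha subunits that receive laminin in muscle and epithelia, were all higher in CD, as were 24.8% of all tested genes. ITGA7, the alpha subunit of the main laminin receptor of skeletal and cardiac muscle, was at 20.5, 17.5 and 24.8 CPM in control and at 314, 343 and 313 CPM in CD cells. Every CD library was more than 10 times above every control library, and the CD libraries were close to each other. The log2 fold change was 3.94 (SE 0.15, FDR 1.37e-07, edgeR), or 15.4-fold, and it was 3.93 without CD replicate 3. This was the largest change in either direction among the 38 tested members.

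ITGA3, the alpha subunit of the epithelial receptor for laminins with an alpha 3 or alpha 5 chain, was at 1623, 1446 and 1744 CPM in control and 2930, 3107 and 1979 CPM in CD cells. The groups did not overlap, but CD replicate 3 was nearer to the control libraries than the others were. The log2 fold change was 0.74 (SE 0.18, FDR 0.00702, edgeR) and 0.88 without that library. ITGA6, which pairs with the beta 4 or the beta 1 subunit, was at 52.9, 48.7 and 50.4 CPM in control and 140, 117 and 74.0 CPM in CD cells. Its control libraries were tightly grouped, and the CD libraries were spread above them. It rose by a log2 fold change of 1.13 (SE 0.20, FDR 0.00132, edgeR), or 2.18-fold.

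Of the beta subunits, 3 of 7 were tested, and all 3 were called, in opposite directions, where 47.7% of all tested genes were called. ITGB1, the common partner of most alpha subunits, was at 279, 294 and 295 CPM in control and 1036, 790 and 659 CPM in CD cells. The CD libraries differed among themselves, with each far above the control libraries. The log2 fold change was 1.52 (SE 0.16, FDR 5.37e-05, edgeR), or 2.86-fold. ITGB5, which pairs with the alpha V subunit to bind vitronectin, was at 69.9, 67.3 and 82.3 CPM in control and 156, 170 and 131 CPM in CD cells, and it was 2.08-fold higher (FDR 1.64e-04, edgeR).

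ITGB4, the subunit that links laminin to keratin filaments in hemidesmosomes, went the other way. It had the most reads of all members in control (ITGA3 in CD cells) and was at 2750, 2422 and 3045 CPM in control and 1780, 1905 and 1307 CPM in CD cells. No CD library reached the lowest control library. The log2 fold change was -0.72 (SE 0.17, FDR 0.00553, edgeR) and -0.61 without CD replicate 3. ITGA6, its only known partner, was higher, as given above.

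The other called integrins belong to different ligands. ITGA11, a collagen receptor subunit of fibroblasts, was at 6.59, 8.46 and 6.997 CPM in control and 22.8, 22.8 and 14.98 CPM in CD cells, a log2 fold change of 1.46 (SE 0.21, FDR 3.31e-04, edgeR). CD replicate 3 was again the lowest CD library and still above all control libraries. ITGA2B, known as the platelet receptor subunit for fibrinogen, was at 72.2, 68.7 and 71.9 CPM in control and 29.9, 31.7 and 35.1 CPM in CD cells. Both groups were narrow, and the log2 fold change was -1.14 (SE 0.12, FDR 4.46e-05, edgeR). ITGA8, which binds nephronectin, was at 1.36, 0.795 and 1.49 CPM in control and 0.184, 0.184 and 0.144 CPM in CD cells, from 57 and 8 counts. Its log2 fold change was -2.78 (SE 0.42, FDR 4.46e-04, edgeR). It passed the filter on low counts only through the control libraries, where it is high, which limits this call. ITGAE, the subunit that binds E-cadherin on lymphocytes, was at 2.15, 1.73 and 1.71 CPM in control and 2.95, 3.31 and 3.75 CPM in CD cells. It was called (log2 fold change 0.84, SE 0.22, FDR 0.0115, edgeR), but not without control replicate 3 (FDR 0.0582, edgeR). Its partner ITGB7 had 5 counts in control and 5 in CD cells.

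The remaining 3 tested integrins were not called. ITGA1, another collagen-binding subunit, was at 62.6, 64.9 and 69.6 CPM in control and 73.2, 75.5 and 85.5 CPM in CD cells, without overlap but with a small change (log2 fold change 0.25, 95% confidence interval -0.01 to 0.51, and 0.14 without CD replicate 3). ITGA5, the fibronectin receptor subunit, had a log2 fold change of 0.27 (-0.02 to 0.56) and overlapping groups. ITGAV, which pairs with several beta subunits, was at 13.5, 11.6 and 10.7 CPM in control and 26.2, 16.9 and 10.6 CPM in CD cells, where CD replicate 3 was level with the lowest control library. Without that library ITGA5 and ITGAV were called, with log2 fold changes of 0.31 and 0.82 (FDR 0.0152 and 6.27e-05, edgeR). ITGA5 was at 0.17 without control replicate 2 and likewise without CD replicate 2 (FDR 0.374 and 0.388, edgeR). The value of ITGAV also rested on CD replicate 1, without which its log2 fold change of 0.59 became 0.22 (FDR 0.433, edgeR).

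**Figure D2:**
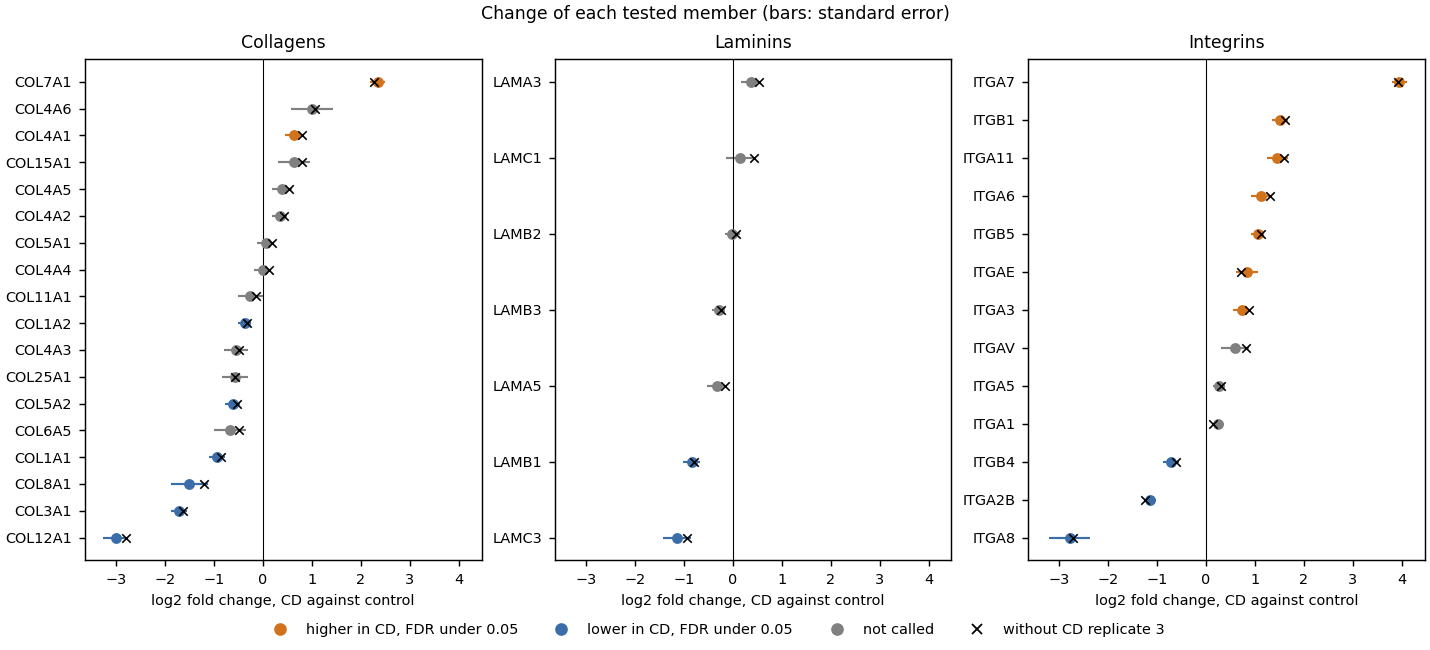
Log2 fold change of CD against control for the 38 tested members, with bars for the standard error, colors for the call in edgeR and a cross for the value without CD replicate 3. Orange points (higher in CD) number 7 among the integrins, 2 among the collagens and 0 among the laminins.

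Of 6 tested chains of fibrils, 4 were called, all lower in CD. The 1 tested chain of fibril surfaces was also lower, where 22.9% of all tested genes were lower. In contrast, the fibrillar chains COL24A1 and COL5A3, with too few counts for this test, had more counts in CD cells, as given further on. COL12A1, a collagen that sits on the surface of type I fibrils, was at 195, 165 and 204 CPM in control and 33.0, 22.8 and 14.2 CPM in CD cells. The groups were well apart, and CD replicate 3 was the lowest. The log2 fold change was -3.01 (SE 0.26, FDR 1.26e-05, edgeR), or 8.03-fold lower, with -2.79 without that library. COL3A1, the chain of type III fibrils, was at 98.4, 82.5 and 111 CPM in control and 30.9, 33.8 and 23.9 CPM in CD cells (log2 fold change -1.72, SE 0.17, FDR 2.50e-05, edgeR). All CD libraries were far below the lowest control library.

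Type I collagen is made of COL1A1 and COL1A2 chains, and both were lower. COL1A1 was at 22.4, 23.6 and 24.4 CPM in control and 13.4, 13.1 and 10.3 CPM in CD cells, a log2 fold change of -0.93 (SE 0.16, FDR 9.45e-04, edgeR). COL1A2 was at 203, 193 and 240 CPM in control and 180, 170 and 142 CPM in CD cells, a smaller step between neighbouring groups. Its log2 fold change was -0.37 (SE 0.13, FDR 0.0403, edgeR), and the call was lost on leaving out control replicate 1, 2 or 3 or CD replicate 2 (FDR 0.0843, 0.0516, 0.175 and 0.0557, edgeR).

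Type V collagen, which starts type I fibrils, had one chain that was lower and one that was not called. COL5A2 was at 558, 535 and 643 CPM in control and 424, 399 and 308 CPM in CD cells, without overlap (log2 fold change -0.62, SE 0.14, FDR 0.00577, edgeR). COL5A1 was at 492, 420 and 552 CPM in control and 563, 568 and 390 CPM in CD cells, so that CD libraries lay on both sides of the control. Its log2 fold change was 0.06, with a 95% confidence interval of -0.32 to 0.43. COL11A1, a further fibrillar chain, also overlapped (log2 fold change -0.26, -0.83 to 0.31), with values from -0.46 without CD replicate 1 to -0.14 without CD replicate 3. COL8A1, a chain of short networks, was at 1.43, 1.301 and 1.82 CPM in control and 0.737, 0.613 and 0.216 CPM in CD cells, from 71 and 25 counts, and was called lower (log2 fold change -1.50, SE 0.38, FDR 0.00833, edgeR). It passed the filter on low counts through the control libraries, where it is high.

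COL7A1 had the highest fold change of the 18 tested collagens. It forms the anchoring fibrils that fasten the basement membrane to the tissue below. COL7A1 was at 6.02, 6.22 and 6.01 CPM in control and 29.1, 30.9 and 33.1 CPM in CD cells. Both groups were narrow, and the change was 5.09-fold (log2 fold change 2.35, SE 0.15, FDR 1.90e-06, edgeR).

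The 6 chains of type IV collagen, the collagen network of basement membranes, were all tested. Of these 1 was called, where 47.7% of all tested genes were called. COL4A1 was at 479, 437 and 578 CPM in control and 927, 860 and 543 CPM in CD cells, where CD replicate 3 fell below control replicate 3. Over all 6 libraries it was called higher (log2 fold change 0.64, SE 0.20, FDR 0.0221, edgeR), but the call was lost on leaving out control replicate 1, control replicate 2 or CD replicate 2 (FDR 0.0767, 0.0976 and 0.0860, edgeR). Its log2 fold change was 0.81 with CD replicate 3 left out. COL4A2, its partner in the common trimer, was at 652, 574 and 761 CPM in control and 877, 941 and 708 CPM in CD cells, and was not called (log2 fold change 0.35, 95% confidence interval 0.01 to 0.68, FDR 0.0829, edgeR).

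The chains of the rarer type IV trimers were not called. COL4A5 was at 60.8, 50.2 and 69.4 CPM in control and 102, 78.2 and 56.5 CPM in CD cells, with overlap through CD replicate 3 and a log2 fold change of 0.39 (-0.07 to 0.85). COL4A4 had nearly the same mean in both groups, 27.7 ± 1.88 CPM for control and 27.6 ± 5.87 CPM for CD (SD, n = 3 each). COL4A3 had a log2 fold change of -0.55 (95% confidence interval -1.09 to -0.01) and was called without CD replicate 1 (FDR 0.0373, edgeR). COL4A6 had 19 counts in control and 39 in CD cells, the fewest of any tested member, and a log2 fold change of 1.01 (0.05 to 1.97). It passed the filter on low counts through the CD libraries, where it is high. Without CD replicate 3, COL4A2, COL4A5 and COL4A6 were called higher (log2 fold change 0.42, 0.54 and 1.06, with FDR 0.00152, 2.76e-04 and 0.0437, edgeR). With any other library left out none of them was called, and COL4A5 was lowest without CD replicate 1 (0.17, FDR 0.421, edgeR), while COL4A2 was lowest without CD replicate 2 (0.23) and COL4A6 without control replicate 2 (0.64). The other tested collagens, COL6A5, COL15A1 and COL25A1, had levels under 3.1 CPM in all libraries and were not called, with log2 fold changes between -0.67 and 0.63. COL15A1 was called without CD replicate 3 (log2 fold change 0.80, FDR 0.0185, edgeR), but was at 0.35 without CD replicate 2 (FDR 0.466, edgeR) and at 1.01 without control replicate 3 (FDR 0.0635, edgeR). COL25A1 was at -0.57, and at -0.32 without control replicate 3. Collagen XVII, the transmembrane collagen of hemidesmosomes, is listed under the symbol F5H0Q7 and so was not a member. It was read after the values were seen and was at 13.6, 11.3 and 14.7 CPM in control and 24.1, 24.5 and 15.1 CPM in CD cells (log2 fold change 0.68, FDR 0.0229, edgeR). This call was lost on leaving out control replicate 1, control replicate 2 or CD replicate 2 (FDR 0.0647, 0.101 and 0.0972, edgeR).

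Of the laminins, LAMA5, LAMB2 and LAMC1, whose products assemble into one trimer of mature basement membranes, were not called. LAMA5, the laminin with the most reads, was at 1541, 1357 and 1814 CPM in control and 1436, 1432 and 893 CPM in CD cells. Only CD replicate 3 fell below the control libraries, and the log2 fold change was -0.33 (95% confidence interval -0.76 to 0.11) and -0.165 without that library. LAMB2 was at 857, 791 and 1020 CPM in control and 906, 994 and 747 CPM in CD cells (log2 fold change -0.01, -0.34 to 0.32). LAMC1, the usual gamma chain, was at 557, 504 and 618 CPM in control and 850, 704 and 307 CPM in CD cells. CD replicates 1 and 2 lay above and CD replicate 3 below the control libraries, and the log2 fold change of 0.15 had an interval of -0.51 to 0.81. Without CD replicate 3 it was 0.44 and called (FDR 8.88e-04, edgeR), while without CD replicate 1 it was -0.14.

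LAMB1 and LAMC3 were the laminins that were called, both lower. LAMB1, a beta chain that can take the place of LAMB2, was at 12.9, 14.4 and 13.99 CPM in control and 9.03, 7.24 and 6.77 CPM in CD cells (log2 fold change -0.84, SE 0.18, FDR 0.00338, edgeR). LAMC3, a rarer gamma chain, was at 5.30, 4.55 and 6.50 CPM in control and 2.52, 3.37 and 1.51 CPM in CD cells (log2 fold change -1.13, SE 0.29, FDR 0.00873, edgeR). In both genes the groups did not overlap. The change of LAMB1 was more even over the libraries than that of LAMC3.

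LAMA3 and LAMB3 are chains of an epithelial laminin that ITGA6 with ITGB4 binds. LAMA3 was at 50.7, 45.2 and 49.4 CPM in control and 78.4, 65.8 and 43.3 CPM in CD cells, with a log2 fold change of 0.37. It was called only when CD replicate 3 was left out (0.54, FDR 7.71e-05, edgeR), and was at 0.18 without CD replicate 1 (FDR 0.400, edgeR). LAMB3 was at 406, 372 and 466 CPM in control and 343, 373 and 302 CPM in CD cells (log2 fold change -0.29, SE 0.13, FDR 0.0923, edgeR).

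The levels were also summed over each class. The summed collagen level averaged 2859 ± 359 CPM without and 2886 ± 540 CPM with CD (SD, n = 3 each; exact permutation test, two-sided p = 1). For the laminins the sums were 3502 ± 454 CPM and 3170 ± 752 CPM (exact permutation test, two-sided p = 0.7), and for the integrins 5180 ± 504 CPM and 6196 ± 1146 CPM (exact permutation test, two-sided p = 0.3). No p below 0.1 is possible with 3 libraries against 3. Leaving out CD replicate 3, the CD means were 3197, 3604 and 6857 CPM for collagens, laminins and integrins, and the laminin mean of CD cells was then above that of the control.

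Within the classes the makeup of the reads shifted. These shares compare the same gene between libraries, and not one gene with another, since a longer transcript gives more reads. ITGB1 held 9.40% ± 1.04 of the reads on beta subunits in control and 31.3% ± 3.64 in CD cells, and ITGB4 88.2% ± 1.08 and 62.9% ± 3.34 (SD, n = 3 each). ITGA7 went from 1.003% ± 0.09 to 9.32% ± 1.69 of the reads on alpha subunits, whereas ITGA3 kept most of them, with 77.2% ± 0.30 and 74.9% ± 3.12. COL4A1 and COL4A2 together with COL5A1 gained or held their shares of collagen reads, as COL4A1 went from 17.4% ± 0.42 to 26.6% ± 2.40, COL4A2 from 23.1% ± 0.39 to 29.4% ± 2.08 and COL5A1 from 17.04% ± 0.44 to 17.5% ± 0.37. COL5A2 went from 20.3% ± 0.77 to 13.1% ± 0.49 and COL12A1 from 6.58% ± 0.31 to 0.79% ± 0.21. For laminins, the share of LAMA5 was 44.8% ± 0.79 in control and 39.5% ± 0.62 in CD cells.

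**Figure D3:**
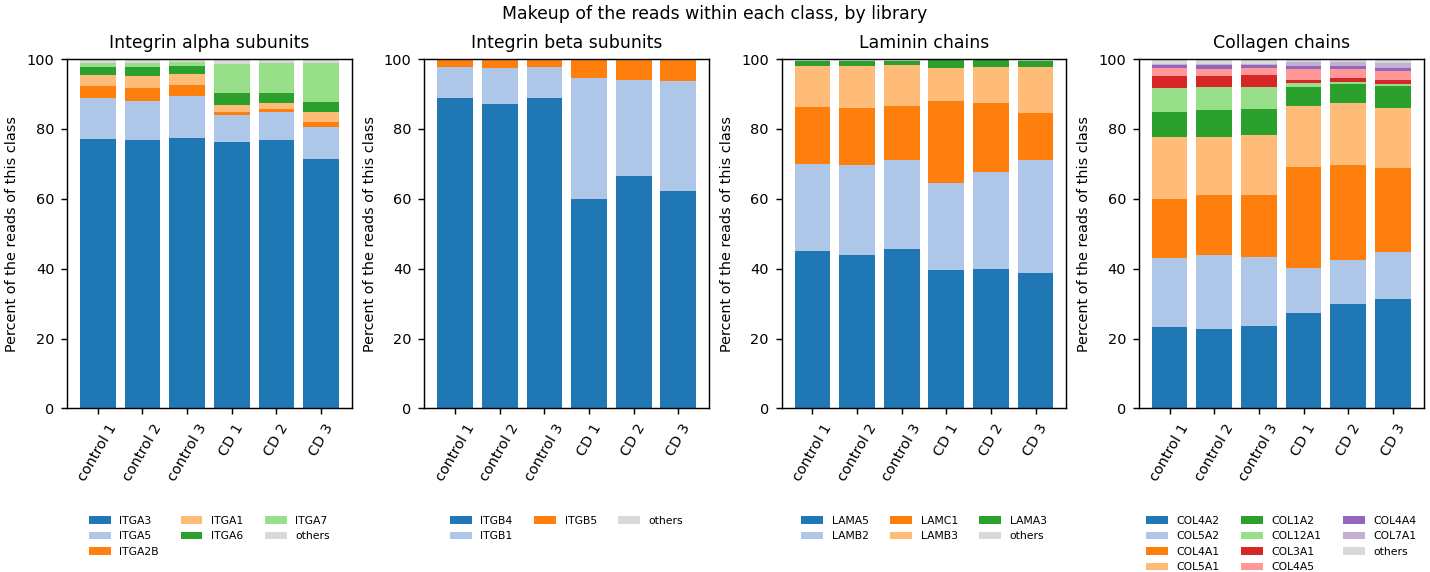
Percent of the reads of each class (integrin alpha subunits, integrin beta subunits, laminin chains, collagen chains) that fell on each gene in each library; genes under 1% in all libraries are gray. In the CD libraries ITGB1 took 31.3% of the beta subunit reads on average, against 9.40% in the control libraries.

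The ratio of the reads of chains that assemble together, or that can take each other's place, within one library does not depend on the scaling between libraries. It is given for 12 pairs as a description with no test, since the pairs were chosen with the values known. The groups overlapped for LAMC1 to LAMA5 and ITGB5 to ITGAV and not for the other 10 pairs, and how often other pairs of genes overlap was not computed. COL1A1 per COL1A2 read was 0.111, 0.122 and 0.101 in control and 0.0745, 0.0775 and 0.0725 in CD cells. COL5A1 per COL5A2 read went the other way, from 0.880, 0.784 and 0.859 to 1.33, 1.42 and 1.27. ITGA6 per ITGB4 read was 0.0193, 0.0201 and 0.0166 in control and 0.0787, 0.0616 and 0.0566 in CD cells. ITGA7 per ITGA3 read was 0.0126, 0.0121 and 0.0142 in control and 0.107, 0.110 and 0.158 in CD cells. COL4A1 per COL4A2 read was 0.734, 0.761 and 0.760 in control and 1.06, 0.914 and 0.768 in CD cells, where CD replicate 3 was level with the control.

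**Figure D4:**
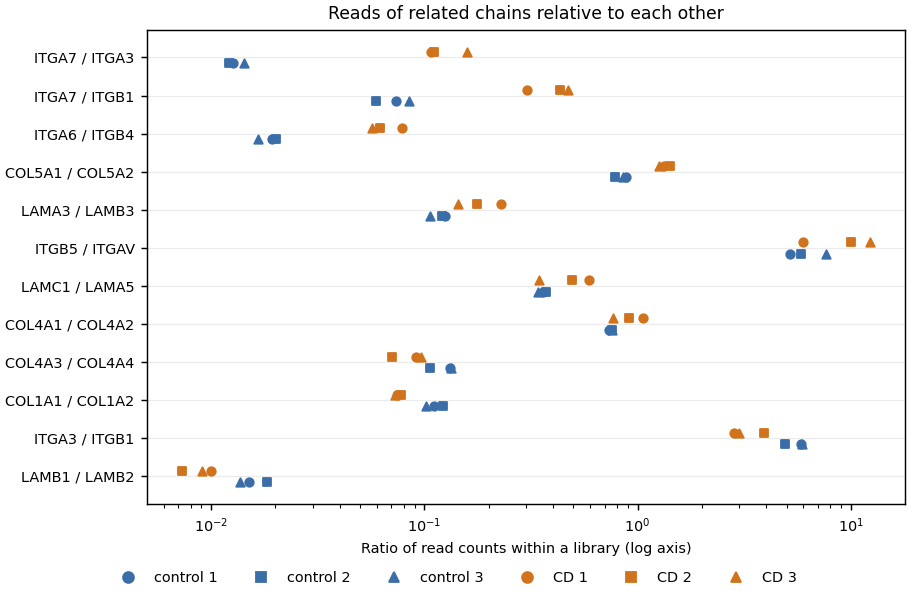
Ratio of the raw counts of a pair of related chains within each library, on a log axis, for 12 pairs sorted by the change, with control in blue and CD in orange. The ratios of ITGA7 to ITGA3 and to ITGB1 and of ITGA6 to ITGB4 moved up the most and that of LAMB1 to LAMB2 moved down the most.

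Of the 36 members with too few counts to be tested, 13 had at least 18 counts in all. Just inside the filter were COL4A6 and ITGA8 with 58 and 65 counts, and just outside it COL2A1 and LAMA2 with 59 and 51. COL24A1, a fibrillar chain, had 0 counts in each control library and 7, 8 and 10 following CD. Against a floor of 3 counts for the whole control group, the 95% limit for a count of 0, COL24A1 was at least 8.34-fold higher, and an exact interval that also takes the counting error of the CD libraries begins at 6.30-fold. LAMA1, an alpha chain of embryonic laminin, had 0 counts in each control library and 6, 13 and 4 following CD, and was by the same floor at least 7.68-fold higher, with an interval that begins at 5.76-fold. LAMA2, the alpha chain of muscle laminin, had 3, 4 and 3 counts in control and 17, 9 and 15 in CD cells. COL24A1, LAMA1 and LAMA2 were called higher by DESeq2, which uses another filter (FDR 0.00107, 0.00254 and 0.0278). By edgeR without the filter, COL5A3 (FDR 0.0337) and ITGA2 (FDR 0.0211) were also called higher and COL2A1 (FDR 0.0477) lower, but not by DESeq2. ITGA2, the alpha subunit of an epithelial collagen receptor, had 0, 0 and 1 counts in control and 11, 7 and 0 in CD cells, so that its reads in CD cells came from replicates 1 and 2. The subunits of leukocyte integrins, ITGAL, ITGAM, ITGAD and ITGB2, had at most 1 count in any library, and the type VI collagen chains COL6A1 and COL6A3 had at most 5.

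**Figure D5:**
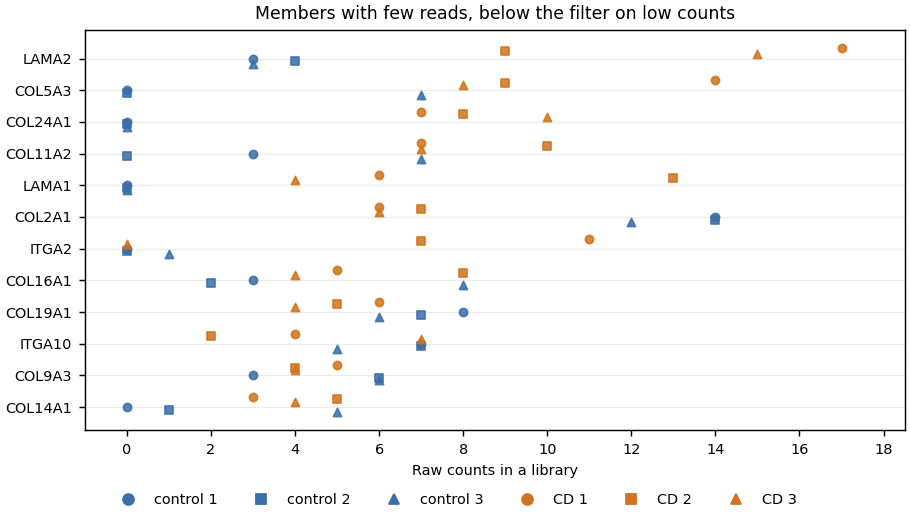
Raw counts per library of 12 members with at least 18 counts in all that were below the filter on low counts, with control in blue and CD in orange. For COL24A1 and LAMA1 all control libraries are at 0 and all CD libraries above.

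Neighbouring genes were read from the RefSeq annotation of mink (assembly ASM_NN_V1, used only for gene order), where 74 of the 76 members were found by symbol. Of 8 pairs of members that are next to each other among protein-coding genes, 3 had both genes tested. COL3A1 and COL5A2 were both lower, with log2 fold changes of -1.72 and -0.62. COL4A1 and COL4A2, known to be transcribed in opposite directions from a common start region, had 0.64 and 0.35. COL4A3 and COL4A4 had -0.55 and -0.00084, and neither was called.

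The genes that fold, modify and crosslink collagen were followed as a list of 31, of which 24 were tested. Of these, 3 were higher and 11 lower in CD (edgeR), where 24.8% of all tested genes were higher and 22.9% lower, and the median of their log2 fold changes was -0.32. The lowest called genes were LOX, which crosslinks collagen and elastin, with 73.8 ± 6.24 CPM in untreated and 15.7 ± 3.77 CPM in depleted cells (log2 fold change -2.23, SE 0.18, FDR 8.23e-06, edgeR), and P4HB, a subunit of collagen prolyl hydroxylase (log2 fold change -1.02, SE 0.14, FDR 2.29e-04, edgeR). Both were lower in every CD library than in any control library. The highest were P4HA3, another subunit of that enzyme (0.93, FDR 0.0241, edgeR), and the lysyl hydroxylase PLOD2 (0.57, FDR 0.0169, edgeR). P4HA3 was not called without control replicate 1, control replicate 2 or CD replicate 2 (FDR 0.0969, 0.0935 and 0.0779, edgeR) or by DESeq2 (FDR 0.0707), and PLOD2 not without control replicate 2 or 3 (FDR 0.0732 and 0.0606, edgeR).

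Other proteins of the basement membrane and matrix made a list of 39, with 25 tested, 4 higher and 9 lower (24.8% and 22.9% of all tested genes), and a median of -0.22. The numbers were 7 and 11 without CD replicate 3, when 29.3% and 29.2% of all genes were called. FBN2, a microfibril protein, fell from 41.4 ± 4.43 to 2.93 ± 1.63 CPM (log2 fold change -3.80, SE 0.33, FDR 1.26e-05, edgeR), and MATN3 by 2.36 on the log2 scale (FDR 4.90e-05, edgeR). NPNT, the nephronectin bound by the alpha 8 integrin, fell from 128 ± 5.70 to 43.6 ± 4.65 CPM (log2 fold change -1.55, SE 0.12, FDR 6.98e-06, edgeR), beside the lower ITGA8 described above, which had few counts. NPNT was named after its value was seen. SPP1, an integrin ligand, had 3 counts in control and 57 in CD cells (FDR 2.24e-04, edgeR). It passed the filter on low counts only through the CD libraries, where it is high, which limits this call. EGFLAM rose by a log2 fold change of 0.98 (FDR 0.00566, edgeR). The log2 fold change of fibronectin (FN1), the ligand of ITGA5 with ITGB1 and likewise named after its value was seen, was -0.10 (SE 0.26, FDR 0.761, edgeR), and it turned from -0.31 without CD replicate 1 to 0.14 without CD replicate 3.

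The adaptors and kinases that connect integrins to the cytoskeleton were a list of 45, of which 36 were tested. Upon CD, 14 were higher and 3 lower (24.8% and 22.9% of all tested genes), and the median was 0.17 on the log2 scale. NEDD9, a docking protein at focal adhesions, was the highest, with 1.60 ± 0.352 CPM in untreated and 18.02 ± 6.25 CPM in depleted cells (log2 fold change 3.47, SE 0.31, FDR 1.68e-05, edgeR). The lowest were the tensins TNS3 and TNS1, with log2 fold changes of -1.11 and -1.01 (FDR 1.31e-04 and 0.00121, edgeR). The list includes ITGB1BP1, which was higher. Without CD replicate 3, 18 were higher and 5 lower (29.3% and 29.2% of all genes).

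Of 19 listed receptors of collagen and laminin other than integrins, with their tetraspanin partners and linkers, 15 were tested, 5 were higher and 4 lower, and the median was -0.10. These counts are near the 24.8% higher and 22.9% lower among all tested genes. CD44, a receptor of hyaluronan and collagen, averaged 130 ± 18.3 CPM in untreated and 774 ± 70.0 CPM in depleted cells (log2 fold change 2.58, SE 0.14, FDR 7.81e-07, edgeR). CD9, a tetraspanin that associates with beta 1 integrins, rose by a log2 fold change of 1.15 (FDR 8.59e-05, edgeR). The lowest were the syndecans SDC3 and SDC4, cell surface proteoglycans, with -1.70 and -1.21 (FDR 3.66e-05 and 1.76e-04, edgeR).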

How the data were processed

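RNA-seq of 3 control and 3 CD samples was used. Per the methods, the authors isolated poly(A) mRNA, made Nextera XT libraries, trimmed reads with fastp 0.20.1 and aligned them to the mink assembly NNQGG.v01 with STAR 2.7.2a. The counting step and its use of strand are not given in the sources used here, so overlapping and antisense genes are uncertain. The authors deposited raw counts per gene, without normalization. The 4 rows of reads on no gene were left out. They held 47.2%, 41.4% and 29.3% of control replicates 1, 2 and 3. In CD replicates 1, 2 and 3 they held 31.1%, 31.8% and 41.4%. Files of normalized expression, in which gene identifiers do not follow the count table, were not used.

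The counts were fitted over all genes with edgeR 4.0.16 in R 4.3.3 (filterByExpr with a minimum count of 10, TMM, glmQLFit with robust estimation, glmQLFTest, condition as the only term). The method was tested on simulated counts with the same spread in both groups and no changed genes among those with few counts. The wider spread of the CD libraries and changes in genes with few counts were therefore not covered. The median SE over tested genes was 0.18. Intervals and floors for few counts cover counting error only. Alternatives were DESeq2 1.42.0, other scalings, other filters, a replicate block and each library left out. Genes named with values were the called members, their partner chains and the 2 highest and 2 lowest called genes of each list, with exceptions stated. Members and lists were chosen with earlier results of these data known. ITGB3, ITGAX, COL6A2 and COL18A1 were not analysed here, and sequences and transcript lengths were not used. Values of 2 further genes that meet the naming rule or the plotting minimum are not reported here.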

Additional observations from a re-analysis of the deposited data

How the results depend on the processing

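Under the 13 alternative settings, 17 of the 20 called members kept their call and direction wherever they were tested, and the exceptions were COL1A2, COL4A1 and ITGAE. Numbers of higher and lower integrins, lower collagens and lower laminins stayed within 1.5 times. Higher collagens numbered 4 without the filter on low counts and between 1 and 6 with one library left out (1 without control replicate 1 or 2 or CD replicate 2, 6 without CD replicate 3), against 2. Higher laminins numbered 3 with DESeq2 and 3 without the filter, where members with few counts, LAMA1 and LAMA2 among them, entered the test, and between 0 and 2 with one library left out. The difference in summed level (CD minus control) reversed for collagens, from 26.7 CPM to -18.9 CPM with DESeq2 size factors, and lay between -145 and 338 CPM with one library left out. For laminins that range was -560 to 102 CPM, positive without CD replicate 3, and for integrins 662 to 1677 CPM. Uncalled members near 0 changed sign. COL4A4 was at 0.032 with upper-quartile scaling, 0.021 with total counts only and 0.0025 with a minimum of 50 counts, and LAMB2 at 0.022 and 0.0080 with the first and second of these. With one library left out, COL4A4 lay between -0.11 and 0.13, COL5A1 between -0.066 and 0.18, LAMB2 between -0.14 and 0.10 and LAMC1 between -0.14 and 0.44. The causes were not tested. With the replicate number as a block, COL1A2 was not called (log2 fold change -0.37, FDR 0.0609, edgeR) and 5 collagens were lower, and no other member changed its call. Deviations of same-numbered libraries from their group means correlated at -0.024, -0.33 and -0.18, so the numbers were not taken as a pairing. COL4A2 was called with upper-quartile scaling (FDR 0.0498, edgeR), and COL1A2 was not called with total counts only (FDR 0.0598, edgeR). At these depths 36 members had too few reads to test, and low depth and low expression were not told apart.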
